A study of Mus musculus with 10 samples.

Results

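The genes described here are those of glycolysis and of the hypoxia response, a list of 41 mouse genes chosen by name: 24 of glucose uptake, glycolysis and the fate of pyruvate, 14 others that low oxygen is known to induce, and 3 for the oxygen-regulated factor HIF and its hydroxylases. They were measured on 10 Affymetrix arrays of 5 cell lines from mouse mammary tumours, with 2 arrays per line. The members were taken as the probe sets paired with 1 gene symbol, that of a listed gene, whose signal lay above the 40th percentile of its array on at least 2 arrays. This left 78 of 81 such probe sets and 37 of the 41 genes, among 14840 genes tested in all. The epithelial line, E, was derived from a mammary adenocarcinoma of a female mouse of the strain FVB/N-TgN(MMTVneu)202Mul, in which the neu oncogene is driven by a mammary tumour virus promoter. The 4 mesenchymal lines, M1 to M4, came from relapsed tumours that grew in female FVB/N mice after E cells were injected; the labels do not say whether the 4 tumours came from separate mice or how host cells were removed. All were grown in dishes in RPMI medium with serum, with no low-oxygen or other treatment named. There is 1 epithelial line, and no source used here says whether a line's 2 arrays stand for separate cultures. The p-values below measure only the spread between these arrays, which may be technical.

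Glycolysis turns glucose into pyruvate in the cytosol, and its early steps, hexokinase and phosphofructokinase, are the main points of control. Several steps are served by isoenzymes from separate genes, whose balance differs between tissues. When oxygen is scarce, prolyl hydroxylases no longer mark the alpha subunits of HIF for destruction, and HIF then binds a short core sequence near many glycolytic, vascular and matrix genes and raises their transcription. Many tumours show high glycolysis in the presence of oxygen, and HIF is among its known drivers.

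The values are probe set signals on a linear scale, and a difference between lines is given on the log2(signal + 32) scale, which understates the change of dim genes. A gene is called higher or lower, or is said to rise or fall, where limma gave an adjusted p under 0.05 (Benjamini-Hochberg, 14840 genes) and a change of at least 2-fold. When the 4 M lines were averaged and set against E, 9 of the 37 members rose (24.3%), where 7.34% of all genes tested did, and 7 fell (18.9%), where 14.5% of all genes did. The other 21 did not pass. The rises lay mostly among the genes listed as hypoxia-induced, of which 6 of 13 tested rose and 1 fell, with a median log2 change of 0.89. This class leaves out HIF-induced genes counted elsewhere, such as Ldha under glycolysis and Egln3 under HIF and its hydroxylases. Of the 21 tested genes of glycolysis, 3 rose and 5 fell, with a median of -0.13. None of the 3 genes for HIF and its hydroxylases rose and 1 fell. The median over all 37 members was -0.10, beside -0.21 over all genes tested. In a fit to 5 line means, which takes the line as the replicate, 5 of the members that rose (Ndrg1, P4ha2, Adm, Bnip3 and Eno2) and 2 that fell (Aldoc and Pfkp) were called.

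**Figure D1:**
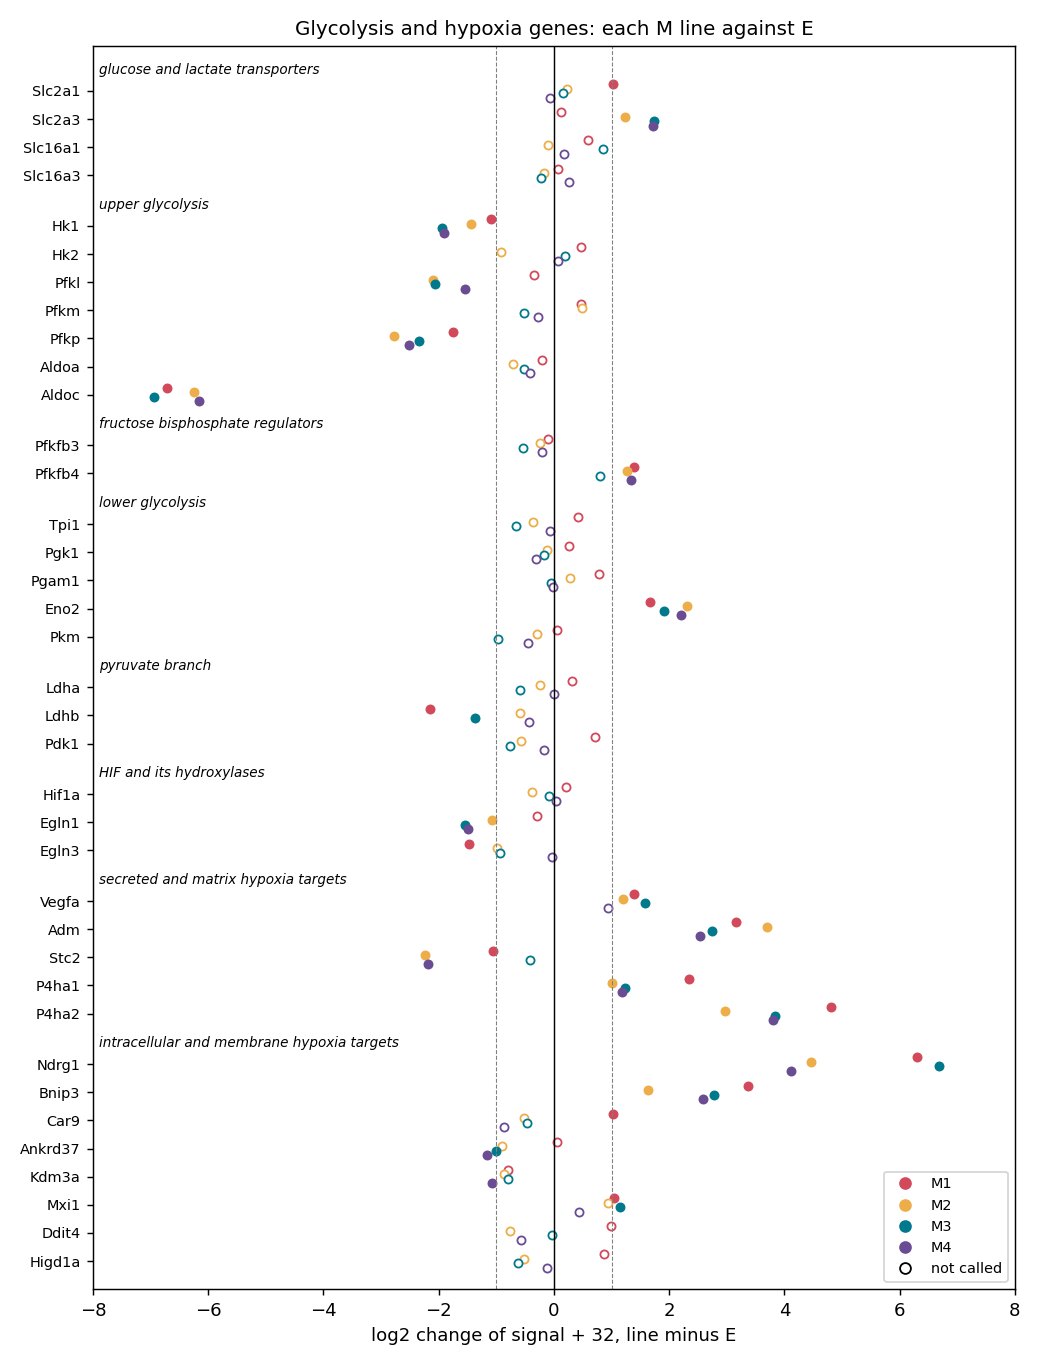
Log2 change of the 37 tested genes in M1, M2, M3 and M4 against E, 1 point per line, grouped by role; filled points are called, open ones are not, and dashed lines mark 2-fold. Aldoc lies lowest, between -6.94 and -6.16, and Ndrg1 highest, between 4.11 and 6.68.

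Brightness differed between arrays: the trimmed mean was 181 on the dimmest array, of M4, and 299 on the brightest, of E, and the spiked hybridization controls of that pair averaged 1067 and 1648. Within a line, the trimmed means were 272 and 214 in M2 and 299 and 264 in E. They lay closer in M1 (252 and 249), M3 (200 and 198) and M4 (181 and 190). The part of these offsets in calls lost without single arrays was not tested. With the arrays quantile normalized, 10 members rose and 5 fell, where 9.6% of all genes rose and 8.79% fell, and the median over all genes moved from -0.21 to 0.04. The members' median then turned from -0.10 to 0.18, and that of the glycolysis genes from -0.13 to 0.06. Arrays of a line correlated at 0.992 to 0.993 over genes, and arrays of different lines at 0.836 to 0.971. Of the markers of the labelled cell types, the summed signal of 6 epithelial markers was 47714.5 in E against 645 to 8016 across M1 to M4, and that of 6 mesenchymal markers was 10561.8 in E against 20631 to 31797. Single markers departed from these sums: Krt8 was 7959 in E but 7947 in M2, 5529 in M3 and 4538 in M4, against 57 for M1, and Vim, bright in E at 9644, was lower in M3 at 7488. Because each array holds the RNA of a whole culture, fewer cells of a kind and less RNA per cell cannot be told apart.

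Ndrg1, which encodes a stress-responsive cytoplasmic protein induced by low oxygen, showed the largest rise among the members. Its signal was 1.9 and 18 on the E arrays, 3190 and 3225 in M1, 1033 and 745 in M2, 4206 and 4161 in M3, and 647 and 717 in M4. Every M array lay far above both E arrays, and M1 and M3 stood above M2 and M4. The mean log2 change was 5.39 ± 0.13 (SE, adjusted p = 4.32e-36), and it was 4.72 with signals under 64 set to 64, since the gene was near background in E. M3 exceeded M4 by 2.56 ± 0.17 (adjusted p = 5.91e-18).

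P4ha1 and P4ha2 encode catalytic subunits of the collagen prolyl 4-hydroxylase, which makes collagen chains fit to fold, and both rose. P4ha2 gave 27.5 and 19.5 in E, 1569 and 1486 in M1, 503 and 319 in M2, 747 and 768 in M3, and 748 and 732 in M4, a mean log2 change of 3.85 ± 0.13 (adjusted p = 1.93e-29). P4ha1 gave 240 and 210 in E, 1325 and 1203 in M1, 565 and 412 in M2, 618 and 526 in M3, and 520 and 587 in M4, a change of 1.44 ± 0.13 (adjusted p = 8.38e-14). For both genes no M array reached down to E, M1 was the highest line and M2 had the lowest mean. P4ha1 in M2, called at 1.01, was not called without the second E array (0.92) or the first M2 array (0.79). The other probe set of P4ha1 was called in the mean (1.20) and in M1 (1.99). It was not called in M2 (0.83), M3 (0.999) or M4 (0.999). M1 exceeded M2 by 1.85 ± 0.17 in P4ha2 (adjusted p = 2.36e-12) and by 1.33 ± 0.16 in P4ha1 (adjusted p = 8.08e-09).

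Bnip3, a mitochondrial protein of the BCL2 family that takes part in mitophagy, rose in all 4 lines. It gave 356 and 278 in E, 3541 and 3597 in M1, 1161 and 929 in M2, 2342 and 2331 in M3, and 1979 and 2115 in M4. M1 was again highest and M2 lowest, with no overlap between E and M arrays. The mean log2 change was 2.59 ± 0.11 (adjusted p = 8.4e-26), and M1 exceeded M2 by 1.75 ± 0.14 (adjusted p = 2.67e-14).

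Adm, which encodes the vasodilator peptide adrenomedullin, also rose in all 4 lines but in another order. It gave 32.1 and 40.3 in E, 554 and 601 in M1, 941 and 767 in M2, 455 and 396 in M3, and 325 and 401 in M4, a mean log2 change of 3.03 ± 0.13 (adjusted p = 1.68e-25). Here M2 was the highest line, 1.16 ± 0.17 above M4 (adjusted p = 2.26e-07), a difference that fell to 0.80, below the 2-fold threshold, on quantile normalized arrays. Vegfa, the main angiogenic growth factor among HIF targets, gave 400 and 265 in E, 882 and 930 in M1, 939 and 669 in M2, 1051 and 1034 in M3, and 662 and 646 in M4. Its mean log2 change was 1.28 ± 0.13 (adjusted p = 6.07e-12), and the single line M4, at 0.94, was not called. M4 was called at 1.56 on quantile normalized arrays and at 1.21 without the first E array, and M2, called at 1.20, was at 0.93 without the second E array and 0.97 without the first M2 array. The E arrays of Vegfa lay further apart than those of most M lines, though below every M array.

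**Figure D2:**
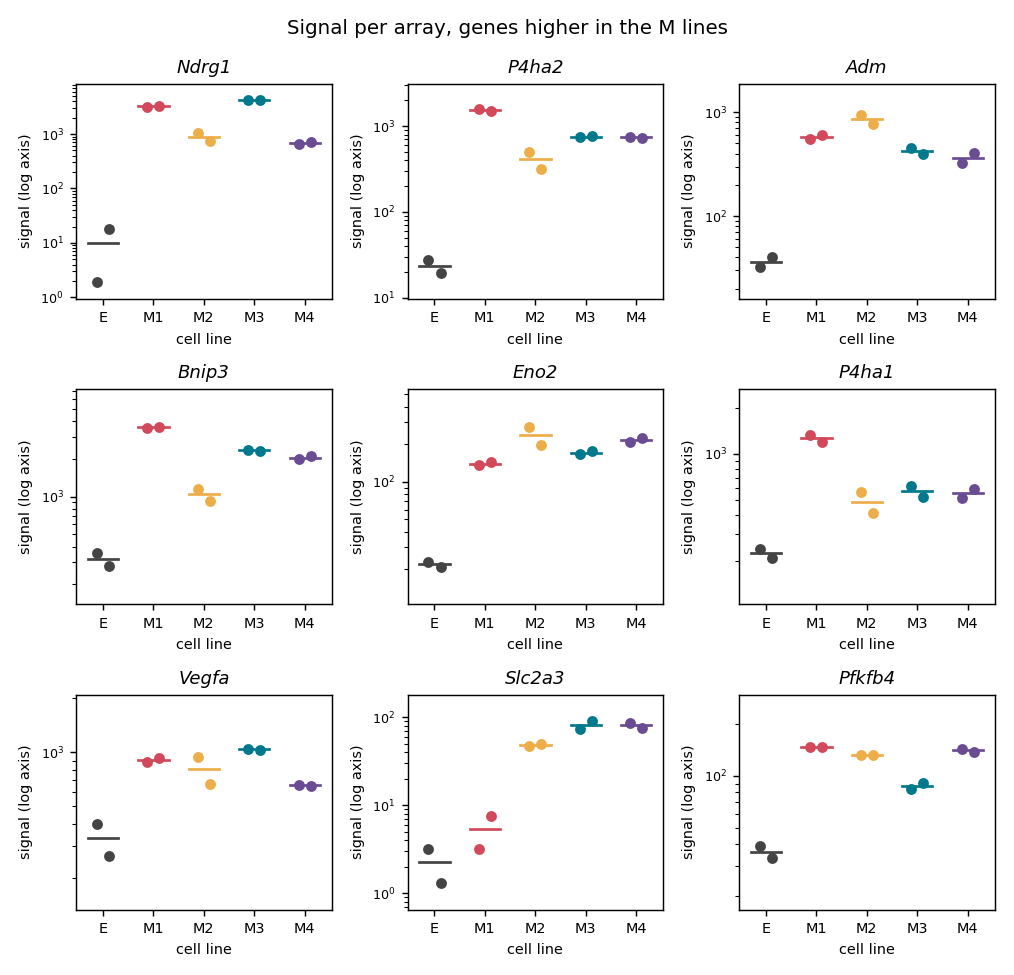
Signal per array (log axis) of the 9 genes that rose in the mean of the M lines, with points for the 2 arrays of a line and a bar for their mean. In Ndrg1 the M3 arrays, at 4206 and 4161, are the highest; in P4ha2, P4ha1 and Bnip3 the M1 arrays are.

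The promoter windows of P4ha2, Bnip3 and Adm, which rose, are shown because the core letters that HIF recognises can be read in them. The windows are RefSeq's on GRCm38.p6, 250 bases before to 50 after a start site, written on the gene's strand. Capitals mark ACGTG or GCGTG on either strand, so CACGT or CACGC when read from the other one; ACGTG on both strands at once gives CACGTG, which is also the E-box letters.
P4ha2, chr11:54100674-54100973, plus strand, 4 matches, 2 of them ACGTG.
P4ha2: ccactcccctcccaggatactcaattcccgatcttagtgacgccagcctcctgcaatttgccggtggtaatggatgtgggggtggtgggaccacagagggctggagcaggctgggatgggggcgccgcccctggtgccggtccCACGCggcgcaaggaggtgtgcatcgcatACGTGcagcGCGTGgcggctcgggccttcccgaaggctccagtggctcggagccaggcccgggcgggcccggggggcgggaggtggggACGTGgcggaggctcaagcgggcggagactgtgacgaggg
Bnip3, chr7:138909457-138909756, minus strand, 5 matches, 2 of which overlap in CACGTG.
Bnip3: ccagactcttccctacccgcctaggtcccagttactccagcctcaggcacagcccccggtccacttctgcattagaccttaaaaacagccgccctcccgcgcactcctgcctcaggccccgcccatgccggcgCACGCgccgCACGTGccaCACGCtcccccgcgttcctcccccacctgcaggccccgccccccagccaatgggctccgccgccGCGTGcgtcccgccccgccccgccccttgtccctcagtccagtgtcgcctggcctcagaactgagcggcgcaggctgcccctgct
Adm, chr7:110627407-110627706, plus strand, 2 matches, both CACGC.
Adm: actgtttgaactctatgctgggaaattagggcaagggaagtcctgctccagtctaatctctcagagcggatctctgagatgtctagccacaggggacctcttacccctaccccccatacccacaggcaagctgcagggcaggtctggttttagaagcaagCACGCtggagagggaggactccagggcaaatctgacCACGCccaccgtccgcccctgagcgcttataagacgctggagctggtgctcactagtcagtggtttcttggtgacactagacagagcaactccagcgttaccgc
A match is a description of the letters and not a bound site. At least 1 match was held by 6 of the 7 genes that rose and had a window, and by 7 of the 7 that fell. A match was also held by 6 of the 6 called only in single lines, and by 14 of the 15 called in no comparison with E. Of the genes that rose, Eno2 had no match in its window, Vegfa none in 1 of its 2 windows, and Ndrg1 and Slc2a3 had no window. In all, 33 of the 35 tested members with a window had a match (94.3%), beside 63.1% of all genes tested with a window. Among all 32851 windows 43.8% had a match, with CACGTG in 7.15%.

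Stc2, a secreted glycoprotein hormone, was the member listed as hypoxia-induced that fell. It gave 773 and 737 in E, 372 and 321 in M1, 161 and 112 in M2, 573 and 548 in M3, and 142 and 138 in M4. All M arrays lay below E, but M3 came close to it. The mean log2 change was -1.48 ± 0.13 (adjusted p = 8.21e-14), M3 alone, at -0.41, was not called, and M2 minus M3 was -1.83 ± 0.17 (adjusted p = 1.04e-12). In M1 the change of -1.06 was called, but it was -0.96 without the second M1 array and -0.81 on quantile normalized arrays, where neither was called. M3 was then at 0.14 in place of -0.41, and another probe set of Stc2 was called lower in M3 (-1.18).

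Of the other members listed as hypoxia-induced, 4 were called in single lines and not in the mean. Mxi1, a Myc-antagonist of the Mad family, gave 403 and 303 in E and 476 to 824 over the M arrays. It was called higher in M1 (1.04) and M3 (1.16), and in the mean its 0.89 ± 0.13 (adjusted p = 5.67e-08) missed the 2-fold threshold, which it passed at 1.299 on quantile normalized arrays, at 1.08 without the first E array and at 1.04 without line M4. Without the second E array Mxi1 was called in neither line (0.85 in M1, 0.97 in M3), and on quantile normalized arrays M2 (1.20) and M4 (1.05) were called too. M1 was at 0.93 without the second M1 array. The other probe set of Mxi1 was called neither in the mean (0.73) nor in any line (0.68 in M1, 0.84 in M2, 0.99 in M3, 0.39 in M4). Car9, the carbonic anhydrase at the cell surface that is widely used as a hypoxia marker, gave 66.5 and 54 in E and 165 and 145 in M1, against 15.8 to 46.6 over the arrays of M2, M3 and M4. It was called higher in M1 (1.02 ± 0.19, adjusted p = 9.58e-06), and M1 exceeded M4 by 1.89 ± 0.19 (adjusted p = 1.69e-11). The M1 call of Car9 was lost without the second E array (0.92) or the first M1 array (0.95), and with a larger pseudocount. Ankrd37, an ankyrin repeat protein, gave 107 and 115 in E, 136 and 99.1 in M1, and 28.8 to 51.2 in the other 3 lines. It was called lower in M3 (-1.01) and M4 (-1.17), and the M3 call was lost without the second E array (-0.97) or the first M3 array (-0.78). Neither was called on quantile normalized arrays (-0.62 in M3, -0.77 in M4) or with signals under 64 set to 64. Its mean change of -0.76 was not called, but was at -1.03 without line M1. Kdm3a, a histone H3 lysine demethylase, gave 1506 and 1222 in E and 630 to 835 over the M arrays, and M4 (-1.07) was called. Without the first E array M4 was at -0.92 and not called, and without the second the mean, -0.88 over all arrays, was called at -1.03. M2, at -0.86, was called without the second E array (-1.01) or the first M2 array (-1.05). The M4 call was lost on quantile normalized arrays (-0.51).

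Ddit4, an inhibitor of mTORC1, and Higd1a, a mitochondrial inner membrane protein, were called in no comparison with E but differed among the M lines. Ddit4 gave 2727 and 2416 in E, 5118 and 5180 in M1, 1690 and 1318 in M2, 2490 and 2532 in M3, and 1832 and 1598 in M4. M1 stood above E and the other M lines below or beside it. M1 minus E was 0.995, just under the threshold, which it passed on quantile normalized arrays (1.05) and without the first E array (1.08) or the first M1 array (1.00), and M1 exceeded M2 by 1.77 ± 0.13 (adjusted p = 5.14e-16). Higd1a gave 2410 and 2235 in E and 4367 and 4213 in M1, against 1419 to 2198 in the other lines, and M1 exceeded M3 by 1.504 ± 0.13 (adjusted p = 5.75e-14). The other 2 probe sets of Higd1a did not show M1 above E (means of 289 against 299, and 47.6 against 53.3), 1 of them was called lower in M4 (-1.07), and with the probe sets averaged the call across M lines was lost.

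Hif1a, the oxygen-regulated alpha subunit, gave 4327 and 3846 in E and 2793 to 4713 over the M arrays. Its groups overlapped, and its mean log2 change of -0.06 ± 0.09 was not called (adjusted p = 0.615); its protein, through which oxygen acts, was not measured. Egln1, the main prolyl hydroxylase acting on it, gave 1201 and 1036 in E, 893 and 907 in M1, 601 and 436 in M2, 365 and 362 in M3, and 374 and 380 in M4. On its brighter probe set all M arrays lay below E, least so in M1. The mean log2 change was -1.10 ± 0.13 (adjusted p = 1.41e-10), but it was -0.73, and no longer called, on quantile normalized arrays. The call was also lost without the first E array (-0.997) and without line M3 (-0.95) or M4 (-0.97). A larger pseudocount (-0.97) or averaging the probe sets (-0.85) lost it as well. On quantile normalized arrays M2 (-0.86) and M4 (-0.90) lost their calls too. The other probe set of Egln1 was not called in the mean (-0.60) and was called lower in M3 (-1.21). There M1 lay above E (means of 661 against 476). Egln3, a hydroxylase that is itself HIF-induced, was called lower in M1 (-1.48), with 2150 and 2021 in E, 742 and 711 in M1, 1140 and 929 in M2, 1070 and 1072 in M3, and 1951 and 2102 in M4. M1 was its lowest line and M4 lay beside E. M2, at -0.996, was just short of the threshold and was called without the second E array (-1.04) or the first M2 array (-1.14). The mean of Egln3, -0.86, was called at -1.14 without M4.

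In glucose uptake, Slc2a1 (GLUT1, the widespread glucose carrier) gave 2704 and 2489 in E, 5268 and 5417 in M1, 3497 and 2664 in M2, 2950 and 2871 in M3, and 2456 and 2517 in M4. M1 stood far above E, the M3 arrays lay slightly above it, and M2 and M4 overlapped it. It was called in M1 (1.03 ± 0.12, adjusted p = 1.93e-10) and not in the mean (0.34 ± 0.09), and without the second E array the M1 change was 0.97 and not called. Slc2a3, the high-affinity carrier GLUT3, gave 3.2 and 1.3 in E, 3.2 and 7.5 in M1, 47.7 and 49.6 in M2, 74.2 and 90.6 in M3, and 86.2 and 75.8 in M4. M1 was as dim as E, and the other 3 lines lay above both. Its mean log2 change was 1.20 ± 0.15 (adjusted p = 1.1e-09), but the signals were low: its other probe set gave -0.07 and was not called, and with signals under 64 set to 64 the change was 0.17 and not called. Of the lactate carriers, Slc16a1 was not called in any comparison with E (0.38 ± 0.10 in the mean, 0.84 in M3), although M3 was called at 1.26 on quantile normalized arrays, and Slc16a3 stayed at or below 29.7 on every array.

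The hexokinase and phosphofructokinase steps held 3 of the 5 glycolytic genes that fell. Hk1, the widely expressed hexokinase, gave 3900 and 3224 in E, 1689 and 1611 in M1, 1499 and 1095 in M2, 872 and 934 in M3, and 969 and 866 in M4, a mean log2 change of -1.597 ± 0.11 (adjusted p = 2.84e-17). It was called lower in each of the 4 lines, with no overlap, though M1 (-1.09) was at -0.95 and not called without the first E array. Hk2, the inducible hexokinase, was not called against E (-0.05 ± 0.12): it gave 774 and 664 in E, 1007 and 1008 in M1, 425 and 308 in M2, and 753 to 834 over the arrays of M3 and M4. M2, at -0.93, was called without the second E array (-1.03) or the first M2 array (-1.14). It was the low line, and M1 exceeded M2 by 1.40 ± 0.16 (adjusted p = 6.77e-10).

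Phosphofructokinase is built from subunits named for liver (Pfkl), muscle (Pfkm) and platelet (Pfkp). Pfkp gave 3497 and 2704 in E, 901 and 872 in M1, 516 and 346 in M2, 592 and 577 in M3, and 502 and 519 in M4, a mean log2 change of -2.35 ± 0.13 (adjusted p = 9.43e-22). Pfkl gave 3915 and 3312 in E, 2802 and 2864 in M1, 908 and 740 in M2, 820 and 849 in M3, and 1204 and 1221 in M4, a change of -1.51 ± 0.11 (adjusted p = 2.6e-17). Pfkp fell in all 4 lines, while Pfkl in M1, at -0.34, was not called and exceeded M2 by 1.75 ± 0.14 (adjusted p = 8.88e-15). A dimmer probe set of each gene was not called in the mean (-0.93 for Pfkp, -0.64 for Pfkl). Pfkm was not called (0.04 ± 0.13), with 596 and 412 in E and 328 to 775 over the M arrays.

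The bifunctional enzymes of the Pfkfb family set the level of the fructose bisphosphate that activates phosphofructokinase. Pfkfb4 rose: it gave 39 and 33.5 in E, 148 and 146 in M1, 132 and 132 in M2, 83.5 and 90.7 in M3, and 143 and 138 in M4, a mean log2 change of 1.20 ± 0.13 (adjusted p = 5.88e-11). Every M array lay above E, and M3, at 0.80, was not called. With signals under 64 set to 64 the mean change was 0.95 and not called. Pfkfb4 in M3 was called at 1.13 on quantile normalized arrays. Pfkfb3 was dim: its brighter probe set on average stayed at or below 48.3 on every array and was not called (-0.27 ± 0.15). The other Pfkfb3 probe set, with means of 62.7 in E, 69.2 in M4, 18.4 in M2, 9.8 in M1 and 6.4 in M3, was called lower in M1 (-1.17) and M3 (-1.29) and not in the mean (-0.81).

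Aldolase showed the largest fall of any member. Aldoc, the isoenzyme known from brain, gave 6619 and 6307 in E, 35 and 25 in M1, 57.7 and 50 in M2, 20.3 and 21.6 in M3, and 55.5 and 62.7 in M4. It was among the bright genes of E and near background in each M line. The mean log2 change was -6.51 ± 0.13 (adjusted p = 3.85e-39), and it was -6.66 with signals under 64 set to 64. Aldoa, the aldolase of muscle and most other tissues, gave 10222 and 9884 in E and 5781 to 8866 over the M arrays. Its M arrays lay below E without overlap, but its change of -0.46 ± 0.07 did not reach 2-fold. Of its 4 other probe sets, 3 gave larger changes (-0.83, -0.81 and -0.78), each called lower in M2 or M3 or both (-1.05 to -1.12) and not in the mean. Aldoc's window is shown beside that of Ldha, a textbook HIF target that was not called here; both hold the core letters.
Aldoc, chr11:78322823-78323122, plus strand, 1 of its 2 windows, 3 matches.
Aldoc: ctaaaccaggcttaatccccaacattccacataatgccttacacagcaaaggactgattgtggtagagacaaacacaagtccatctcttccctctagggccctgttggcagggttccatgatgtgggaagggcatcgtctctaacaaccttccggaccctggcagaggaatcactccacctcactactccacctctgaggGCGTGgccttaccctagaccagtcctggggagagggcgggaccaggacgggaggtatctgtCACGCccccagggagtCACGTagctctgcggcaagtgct
Ldha, chr7:46845554-46845853, plus strand, 1 of its 2 windows, 7 matches, of which 4 lie pairwise in CACGTG.
Ldha: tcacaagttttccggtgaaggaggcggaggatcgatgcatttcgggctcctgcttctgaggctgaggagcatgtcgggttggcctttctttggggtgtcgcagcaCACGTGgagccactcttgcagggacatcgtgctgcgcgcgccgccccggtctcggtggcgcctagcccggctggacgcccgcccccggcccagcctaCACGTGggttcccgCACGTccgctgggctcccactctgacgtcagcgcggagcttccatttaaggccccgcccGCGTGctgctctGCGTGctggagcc

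Among the later steps, Tpi1, Pgk1, Pgam1, Pkm and, in the pyruvate branch, Ldha were bright on every array and called in no comparison with E, though Pkm in M3 (-0.97) was called at -1.01 without the second E array. Their mean log2 changes lay between -0.41 (Pkm) and 0.25 (Pgam1). Ldha, which makes lactate from pyruvate, gave 10617 and 10535 in E, 13201 and 13261 in M1, 9327 and 8490 in M2, 7204 and 6841 in M3, and 10399 and 10769 in M4, with a mean change of -0.13 ± 0.07. In M1 it stood above E and in M2 and M3 below it, by less than 2-fold in each. Tpi1 and Pkm differed among the M lines, with M1 above M3 by 1.08 and 1.02, and both differences fell under 2-fold on quantile normalized arrays (0.78 and 0.72).

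Eno2, the enolase of neurons, was the glycolytic gene that rose in each of the 4 lines. It gave 22.7 and 21 in E, 135 and 143 in M1, 276 and 198 in M2, 168 and 175 in M3, and 209 and 222 in M4, a mean log2 change of 2.02 ± 0.14 (adjusted p = 3.28e-18). No M array overlapped E. Ldhb, the lactate dehydrogenase subunit of heart, fell: it gave 1520 and 1351 in E, 296 and 302 in M1, 957 and 923 in M2, 559 and 512 in M3, and 1059 and 1042 in M4. Its mean log2 change was -1.14 ± 0.12 (adjusted p = 7.42e-12), M2 (-0.59) and M4 (-0.44) were not called, M3 (-1.37) was at -0.87 and not called on quantile normalized arrays, and M1 minus M4 was -1.71 ± 0.15 (adjusted p = 2.29e-13). M1, the high line of many members, was the low line of Ldhb, and without M1 the mean change was -0.80 and no longer called. Pdk1, the kinase that shuts off pyruvate dehydrogenase, was not called against E (-0.20 ± 0.13), with 338 and 263 in E, 511 and 513 in M1 and 160 to 282 in the other lines, and M1 exceeded M3 by 1.48 ± 0.17 (adjusted p = 5.24e-10). Another Pdk1 probe set was called higher in M1 (1.19).

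**Figure D3:**
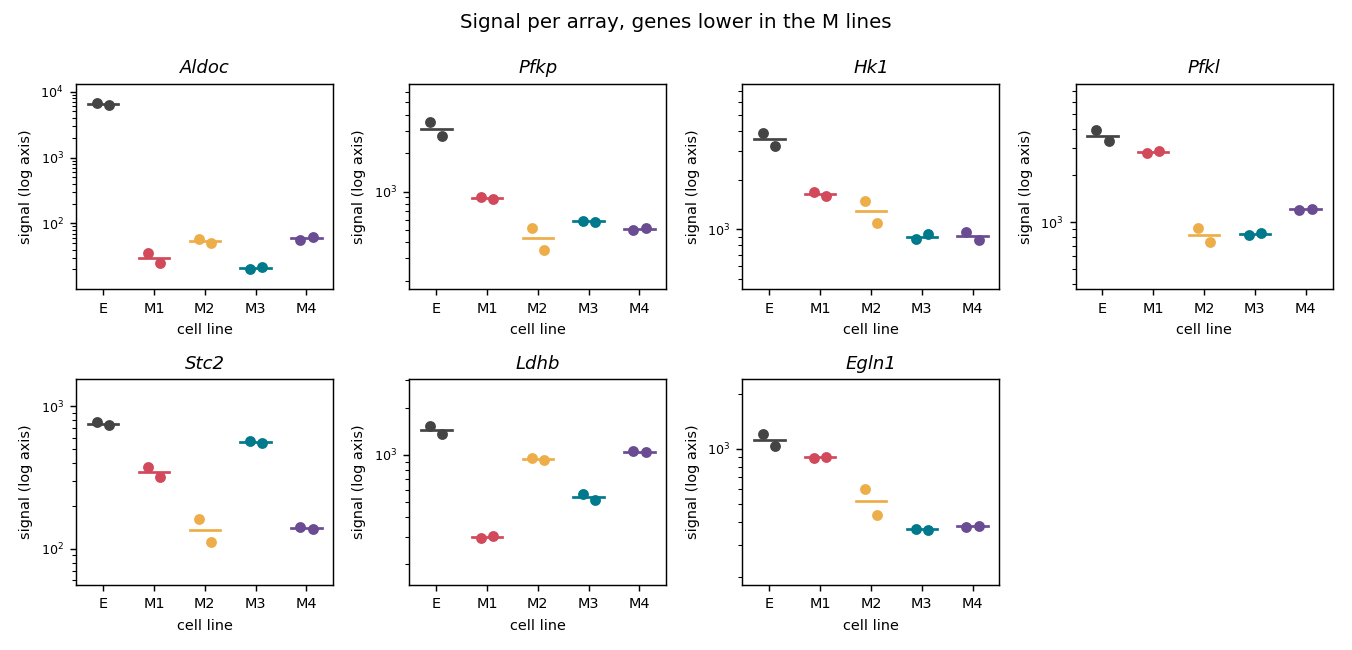
Signal per array (log axis) of the 7 genes that fell in the mean of the M lines, with points for the 2 arrays of a line and a bar for their mean. Aldoc goes from 6619 and 6307 in E to at most 62.7, while in Pfkl and Egln1 the M1 arrays lie close to E and in Stc2 the M3 arrays do.

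The listed genes that could not be tested were 4. Gpi1 and Eno1 had no probe set paired with their symbol here, and the probe sets of Bnip3l and Gapdh were each paired with several symbols. The array's own control probe sets for Gapdh, the glyceraldehyde phosphate dehydrogenase, gave mean log2 changes of -0.21, -0.19 and -0.17, described without a test. Of the 23 members with several kept probe sets, 13 had sets that differed in the call of at least 1 line, and 0 had opposite calls.

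Each M line was also set against E by itself; these comparisons share the E arrays, so their values are given side by side. In M1, 11 members rose, where 8.6% of all genes did, and 6 fell, where 12.5% did. In M2, 9 rose (8.58% of all genes) and 6 fell (11.8%). In M3, 9 rose (7.7%) and 7 fell (19.8%). In M4, 8 rose (6.65%) and 8 fell (20.1%). The median log2 change over the members was 0.42 in M1 (-0.11 over all genes tested), -0.30 for M2 (-0.14), -0.41 for M3 (-0.25) and -0.07 for M4 (-0.35). These counts and medians depended on the scaling. On quantile normalized arrays 12 members rose and 5 fell in M1 (10.1% and 9.37% of all genes), 10 and 5 in M2 (10% and 8.74%), 11 and 5 in M3 (12% and 11.7%), and 10 and 5 in M4 (10.4% and 9.47%). The members' medians were then 0.42 in M1 and 0.42 in M4, 0.00 in M3 and -0.16 in M2, so that M4 turned sign and stood beside M1.

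**Figure D4:**
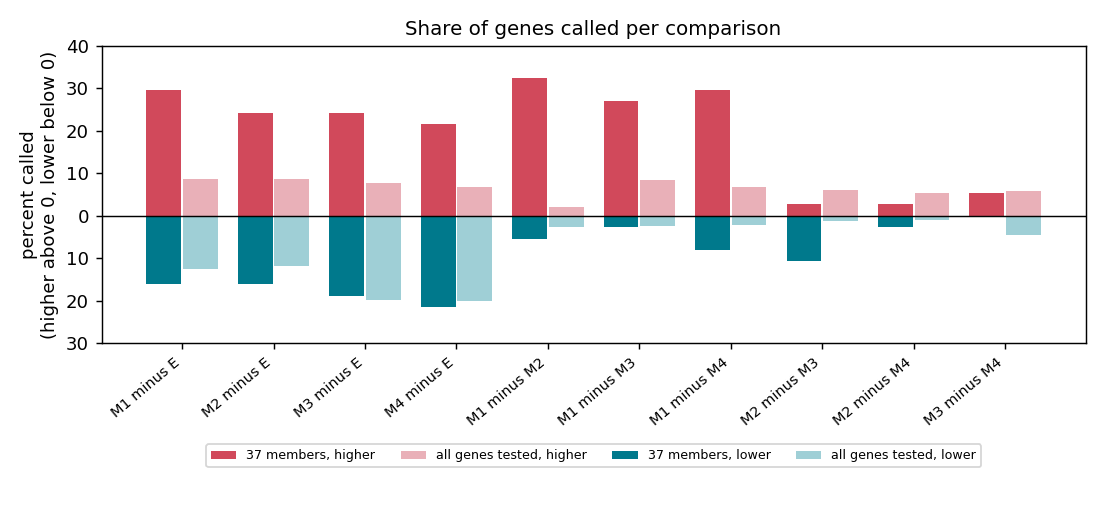
Percent of the 37 members and of all 14840 genes tested called higher (above 0) or lower (below 0) in each M line minus E and in the 6 pairs of M lines. The bar for M1 minus M2 shows 32.4% of the members higher, beside 1.95% of all genes.

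Next, the M lines were compared with each other. Across M1 to M4 (moderated F test with a largest difference of at least 2-fold) 22 of 37 members were called, 59.5%, where 22.4% of all genes were; on quantile normalized arrays 16 were called, 43.2% beside 18.2%. M1 was the highest M line in 15 of these 22 and the lowest in 3, which were Slc2a3, Ldhb and Egln3. Over all genes tested, called or not, M1 was highest for 39.3% and lowest for 14.4%. On quantile normalized arrays these shares were 24.4% and 26.1%. The shares among only the genes called across M1 to M4 were not computed. M1 exceeded M2 in 12 members (1.95% of all genes) and lay below it in 2 (2.59%). It exceeded M3 in 10 (8.44%) and M4 in 11 (6.83%), and lay below them in 1 (2.55%) and 3 (2.13%). On quantile normalized arrays M1 still exceeded M2 in 11 (1.83% of all genes), but M3 and M4 in 4 each (5.03% and 2.88%), and lay below M2 in 2 (2.59%), M3 in 2 (4.6%) and M4 in 3 (3.2%). Among the other pairs, M2 exceeded M3 in 1 member (6.05%) and lay below it in 4 (1.24%), M2 exceeded M4 in 1 (5.28%) and lay below it in 1 (1.04%), and M3 exceeded M4 in 2 (5.77%) and lay below it in 0 (4.56%). On quantile normalized arrays M2 exceeded M3 and M4 in 0 members (3.63% and 2.18%) and lay below them in 6 (2.39%) and 4 (1.93%), and M3 exceeded M4 in 2 (5.14%) and lay below it in 2 (5.36%).

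**Figure D5:**
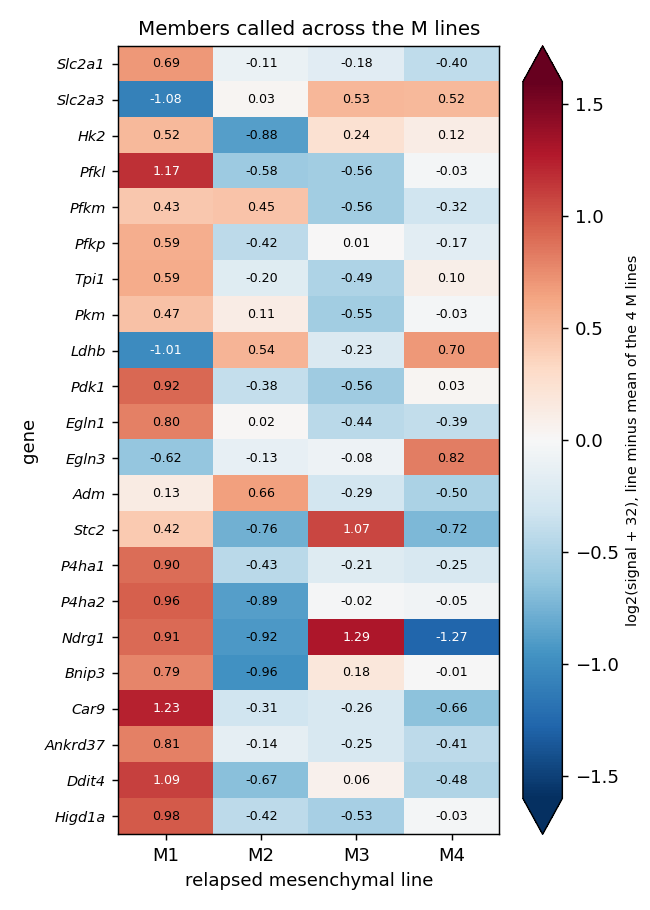
Log2 deviation of each M line from the mean of the 4 M lines, for the 22 members called across them. M1 lies highest in 15, reaching 1.23 in Car9 and 1.17 in Pfkl, and is lowest in Slc2a3, Ldhb and Egln3. Over all genes tested, called or not, M1 was highest for 39.3%, and for 24.4% on quantile normalized arrays.

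Over all 37 members, called or not, M1 was the highest M line in 24 (64.9%), where it was highest for 39.3% of all genes, and on quantile normalized arrays in 17 (45.9% beside 24.4%). M2 was the lowest in 11 (29.7% beside 10.2%), and on quantile normalized arrays in 17 (45.9% beside 21.3%).

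Genes of the same pathways outside the list were counted in the same fit, where 7.34% of all genes rose and 14.5% fell. On quantile normalized arrays 9.6% of all genes rose and 8.79% fell. Of 17 tested HIF subunits and regulators, none rose and 2 fell: Epas1, the HIF alpha subunit of endothelium and other tissues, from 1138 in E to 144 to 382 in the M lines (-1.98 ± 0.14, adjusted p = 1.68e-17), and Cited4, a transcriptional cofactor (-2.70 ± 0.16). Of 35 other glycolysis, pyruvate and lactate genes, 1 rose and 6 fell (2 and 4 on quantile normalized arrays). The 1 that rose was Eno3, the enolase of muscle, with 60.3 and 62.7 in E, 5968 and 6156 in M1, 4893 and 4501 in M2, 1494.8 and 1550.8 in M3, and 2016 and 2252 in M4 (5.07 ± 0.10, adjusted p = 6.21e-39). With Eno2, 2 enolase genes thus rose. Of 5 skeletal muscle markers, 1 passed a signal of 100 in any line, Acta1 in M1 at 166; their summed signal was 112 in E against 99.9 to 260.2 across M1 to M4, and their part in the Eno3 values was not tested. The largest falls of that list were Ldhd, a lactate dehydrogenase that acts on the D form (-6.00 ± 0.15), Gpd1, the cytosolic glycerol phosphate dehydrogenase (-2.15 ± 0.17), and Slc16a7, a monocarboxylate carrier (-1.68 ± 0.17).

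Of 10 tested pentose phosphate genes, 1 fell, Rpia (-2.41 ± 0.13), the ribose phosphate isomerase, and none rose. Of 55 other genes known as hypoxia-induced, 11 rose and 12 fell, and 15 and 7 did so on quantile normalized arrays (9.6% and 8.79% of all genes). The largest rises were those of Lox, the collagen cross-linking lysyl oxidase (6.98 ± 0.11), Cav1, the caveolar coat protein (6.87 ± 0.09), and Hmox1, heme oxygenase (5.07 ± 0.10). The largest falls were those of Fos, an AP-1 subunit (-4.20 ± 0.13), Cxcr4, a chemokine receptor (-3.65 ± 0.15), and Pgf, the placental growth factor (-3.41 ± 0.17). The median log2 change over this list was 0.16.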

How the data were processed

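The authors deposited 45101 linear intensity values per array, 1 for each probe set, made with GCOS 1.3 per the submitters' processing notes. Detection calls were not used here. The signal algorithm, target scale and background step were not given in the sources used here. After a pseudocount of 32, values were taken to log2. Of several kept probe sets of a gene, the brightest on average stood for it. The 64 control sets and probe sets with several symbols (932) or none (9160) were left out. Differences were tested by limma 3.58.1 under R 4.3.3 (lmFit, eBayes with a trend), with 1 mean per line over 10 arrays and 5 residual degrees of freedom. The prior added 41.39 degrees of freedom, so each p-value rests mostly on a spread between arrays that was pooled over all genes. The median residual SD was 0.16, and the number of arrays limits the precision. Code for the fit was tested on simulated data. The deposited scaling was kept, with quantile normalization, median centring, hybridization-control scaling, other pseudocounts and filters, the mean of probe sets, left-out arrays and lines, a replicate block and a fit to 5 line means as alternatives. The fit to 5 line means has only 1 value for E, so its spread comes from the M lines alone and E is not replicated in it. Genes named from other pathways were up to 3 called genes with the largest change in each direction per list. The members and lists were chosen with earlier results of these data known. Promoter windows were matched by symbol for 35 of the 37 tested members.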

Additional observations from a re-analysis of the deposited data

Results flagged for a closer look

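In 22 members the M lines differed from each other in their change against E. Each is given by its largest difference between a pair of M lines on the log2 scale, past the threshold of the limma fit. M1 exceeded M2 by 1.40 in Hk2, 1.75 in Pfkl, 1.01 in Pfkp, 1.33 in P4ha1, 1.85 in P4ha2, 1.75 in Bnip3 and 1.77 in Ddit4. M1 exceeded M3 by 1.08 in Tpi1, 1.02 in Pkm, 1.48 in Pdk1, 1.24 in Egln1 and 1.504 in Higd1a. M1 exceeded M4 by 1.09 in Slc2a1, 1.89 in Car9 and 1.22 in Ankrd37. M1 lay below another line in 3 members: M1 minus M3 was -1.61 in Slc2a3, and M1 minus M4 was -1.71 in Ldhb and -1.44 in Egln3. The remaining 4 differences did not involve M1. M2 exceeded M3 by 1.01 in Pfkm and M4 by 1.16 in Adm, M2 minus M3 was -1.83 in Stc2, and M3 exceeded M4 by 2.56 in Ndrg1.

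Of these calls across the M lines, those of Slc2a1, Pfkm, Tpi1, Pkm, Pfkp, Egln1 and Adm were lost on quantile normalized arrays. That of Slc2a3, whose M1 signals were near background, was lost with signals under 64 set to 64 and with a larger pseudocount, and that of Higd1a with its probe sets averaged. The call of Ankrd37 was lost with signals under 64 set to 64, with a larger pseudocount and with hybridization-control scaling. That of Car9 was lost with a larger pseudocount. The calls of Pfkm and Pfkp were also lost without single arrays. M2 minus M3 in Pfkm was 0.90 without the first M2 array and 0.97 without the first M3 array. M1 minus M2 in Pfkp was 0.99 without the first M1 array and 0.74 without the second M2 array.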

How the results depend on the processing

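Over 25 alternatives, 7 of the 16 called members (Aldoc, Pfkp, Eno2, Adm, P4ha2, Ndrg1 and Bnip3) kept their call throughout, and no called member changed direction. The fit to 5 line means gave 5 members higher and 2 lower, in place of 9 and 7; it has 3 residual degrees of freedom. Of the 16, 14 kept their call under all 3 other scalings, and Ldhb (-0.76) and Egln1 (-0.73) lost theirs on quantile normalized arrays. Slc2a3, Pfkfb4 and Egln1 lost theirs with a larger pseudocount (0.46, 0.63 and -0.97), and Slc2a3 and Egln1 with probe sets averaged (0.57 and -0.85). Of the 21 uncalled members, 17 were called under none, and 12 changed sign under at least 1. These include Pfkfb3, whose only change of sign was to 1.3e-15, a rounding value, with signals under 64 set to 64. Leaving out 1 array gave 9 to 10 members higher and 6 to 8 lower. The replicate numbers do not pair the arrays (correlations of deviations -0.07 to 0.06); with the replicate block 9 members rose and 7 fell, and no other call changed. Signals near background limit Slc2a3, Slc16a3 and Pfkfb3, and the M2, M3 and M4 values of Car9 and Ankrd37. They also limit the E values of Ndrg1, P4ha2, Adm, Eno2 and Pfkfb4, and the M values of Aldoc. With signals under 64 set to 64, the mean change of Car9 was 0.29 in place of -0.21, and neither was called.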
